A study of Mus musculus with 34 samples.

Results

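The clustered protocadherin genes were taken from the RNA-seq table of E11.5 mouse limb buds as every gene whose symbol begins with *Pcdha*, *Pcdhac*, *Pcdhb*, *Pcdhga*, *Pcdhgb* or *Pcdhgc* followed by a number. There were 57 such genes among the 22040 protein-coding genes of the table, 14 in the alpha, 22 in the beta and 21 in the gamma cluster, and no minimum level was asked of them. The symbol *Pcdha11* stood on 2 of the alpha genes, which have different Ensembl identifiers (ENSMUSG00000007440 and ENSMUSG00000102206) and are kept apart here.

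RNA was sequenced from limb buds of wild type (WT) and *Prrx1-Cre;Hnrnpk* fl/fl (CKO) embryos at E11.5, with 3 biological replicates per group. Hnrnpk is a protein that binds RNA and DNA, and the study asked what its loss does to transcription in the limb bud and to the insulator protein Ctcf. *Prrx1-Cre* is active in the limb bud mesenchyme and the calvarium but not in the apical ectodermal ridge, and only incompletely in the hindlimb, so that CKO limb buds still hold cells with an intact gene. In such whole tissue, fewer cells of a type and less RNA per cell cannot be told apart.

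Clustered protocadherins are cell surface proteins of the cadherin family that give single cells, above all neurons, an identity by which their processes recognise one another. In the alpha and gamma clusters each gene has a promoter and a large variable exon of its own and is spliced to a few constant exons that it shares with the whole cluster, whereas a beta gene is a single large exon. Most of these promoters carry a binding site for Ctcf, and with cohesin Ctcf joins a chosen promoter to a distant enhancer, while DNA methylation keeps the others silent. The C-type genes (*Pcdhac1*, *Pcdhac2*, *Pcdhgc3*, *Pcdhgc4* and *Pcdhgc5*) lie at the downstream end of the alpha and gamma clusters, and are known in neurons for steady use rather than choice.

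The 3 clusters lie one after the other on chromosome 18 of GRCm38, all members on the plus strand. The alpha cluster spans 36930184 to 37187661, the beta cluster 37264938 to 37524479 and the gamma cluster 37661793 to 37841873. The annotation has 9 alpha genes sharing 2860 bases of exon and 14 gamma genes sharing 2119 bases, and the 14 alpha and 21 gamma genes all share some exon with another gene. Among the beta genes only *Pcdhb21* and *Pcdhb22* overlap, by 455 bases. Reads from a shared exon cannot be given to 1 gene, and few if any were counted, since *Pcdhga1* had 18 to 40 reads per library while *Pcdhgc3* had 1261 to 2039. The values therefore measure the variable exons. Levels are compared between genes as FPKM rescaled to the exon that no other gene of the same strand covers, called here the level per own exon, and libraries are compared by the FPKM (fragments per kilobase of gene, scaled by a size the authors set for each library) as deposited. The reads on the listed genes came to 1.11 and 1.03 times that size in CKO replicates 2 and 3 and to 0.947 to 0.968 times in the other libraries.

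The deletion was first checked in every library. *Hnrnpk* had 193, 195 and 185 FPKM in WT replicates 1, 2 and 3 and 127, 142 and 135 FPKM in CKO replicates 1, 2 and 3. The CKO values all lay under the WT values (log2 fold change -0.50, SE 0.13, limma adjusted *p* = 0.334, and 0.057 with the replicate number as a block). The limb mesenchyme markers were present in every library, with *Prrx1* at 51.6 to 62.0 FPKM. The reads on the listed genes numbered 17140869 in the shallowest library (CKO replicate 1) and 24624434 in the deepest (CKO replicate 3). The replicate 1 libraries of both groups stood apart from the other 4 along the first principal component, which held 52.6% of the variance, and the genotypes separated on the second with 26.0%. The counts of members by direction and by call are therefore also given without them.

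Most of the family was close to silent in the limb bud, and the clusters differed in how much was detected. No read was found in any library for 3 members, *Pcdha1*, *Pcdha4* and *Pcdhb1*, and 3 reads in the shallowest library would be 0.0311 FPKM for *Pcdha1*. Only 494 of the 5768 exon bases of *Pcdha4* are its own, so its 0 reads say less than those of the others. A read was found somewhere for 54 members and in all 6 libraries for 42, namely 1 of 14 alpha, 20 of 22 beta and 21 of 21 gamma genes. At least 10 reads in each library were reached by 31 members, 10 of the beta and 21 of the gamma cluster. A mean of 0.5 FPKM over the 6 libraries, the minimum for testing, was reached by 20 members, 4 beta and 16 gamma genes. That was 35.1% of the members, against 55.8% of all genes in the table. FPKM divides by the whole exon length, shared exons included, so it understates the alpha and gamma genes in this comparison. With the minimum at 0.1 FPKM, 39 members were tested, 1 alpha, 17 beta and 21 gamma genes. Just under the minimum of 0.5 lay *Pcdhga4* with a mean of 0.473 FPKM, and just above it *Pcdhga6* with 0.509 FPKM. Their levels per own exon had the opposite order, with 1.43 for *Pcdhga4* and 0.922 for *Pcdhga6*.

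**Figure D1:**
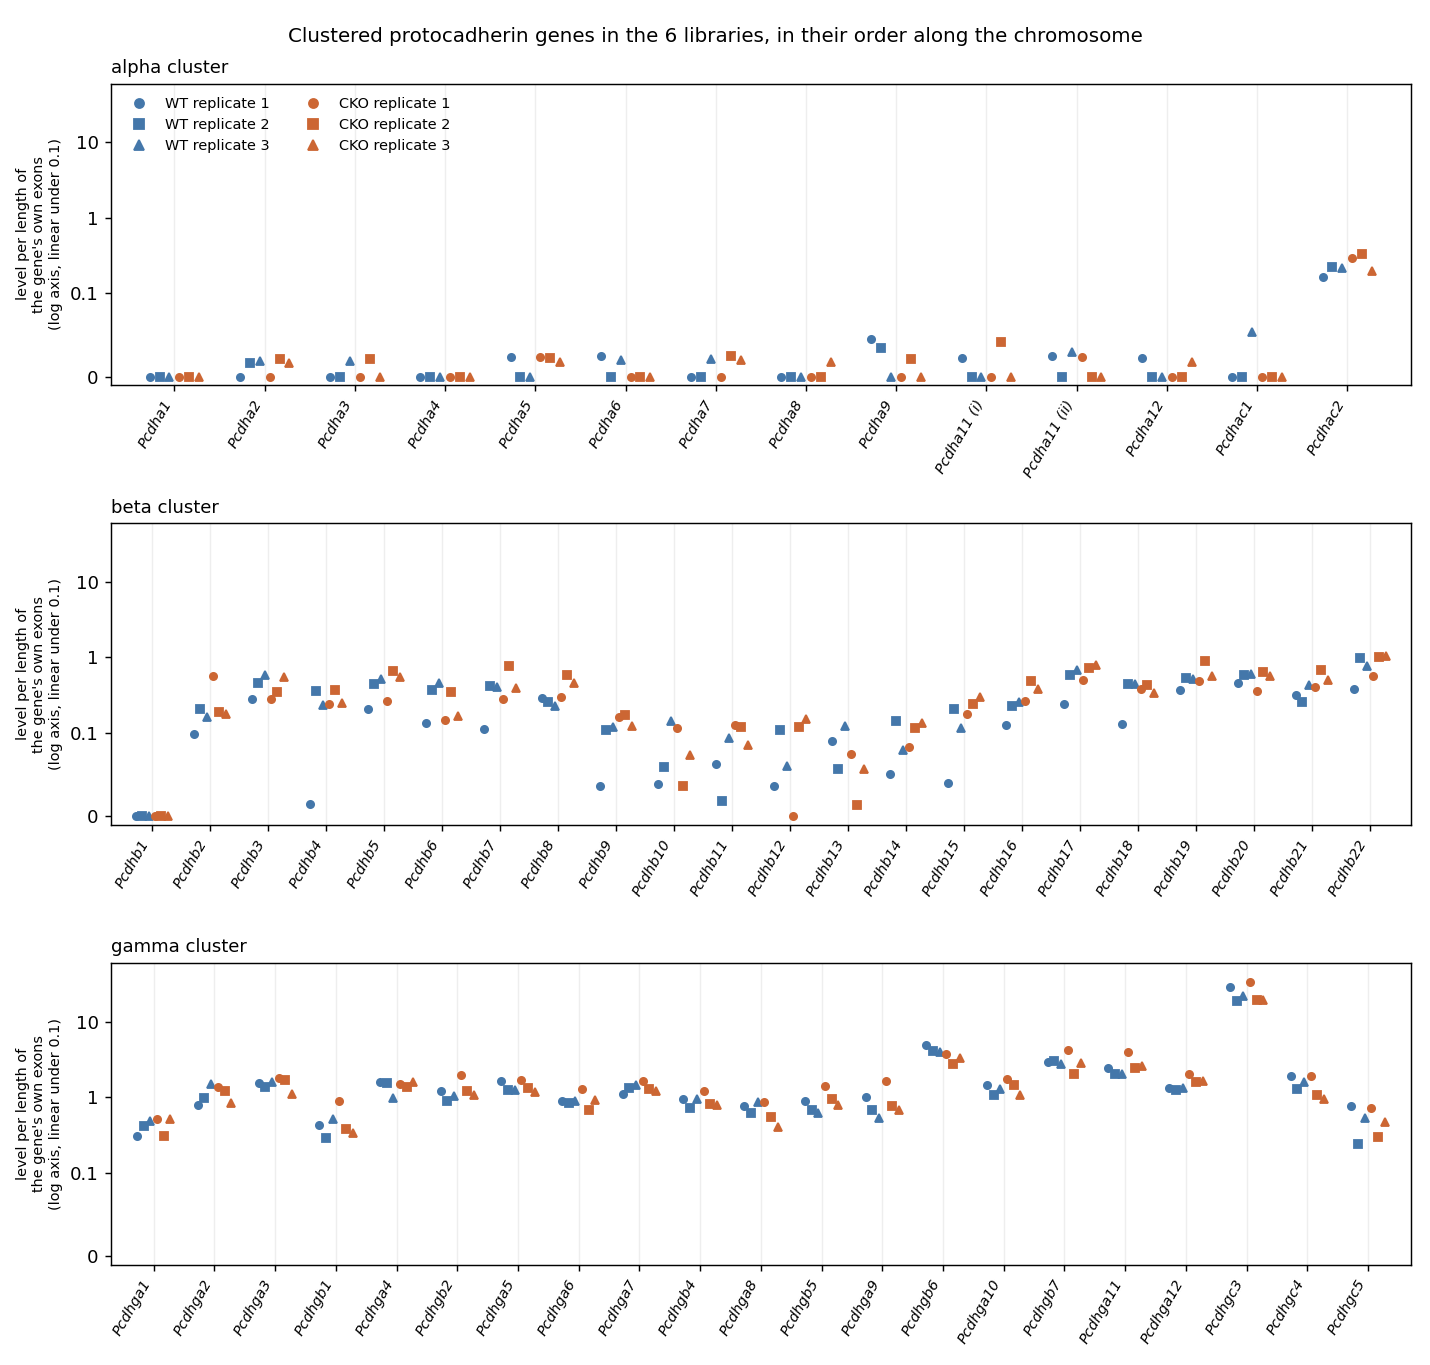
Level per own exon (FPKM rescaled to the unshared exon length) of the 57 members in each library, with the genes in their order along the chromosome and the y axis logarithmic but linear under 0.1. Points are single libraries, and the 2 genes named *Pcdha11* are marked (i) for ENSMUSG00000007440 and (ii) for ENSMUSG00000102206. The alpha genes sit near 0 except *Pcdhac2*, the beta genes lie under about 1, and *Pcdhgc3* stands above every other member.

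The alpha cluster gave 17 to 26 reads per library over all 14 genes. Most of these came from *Pcdhac2*, the C-type gene at the downstream end of the cluster, which had 9, 16 and 14 reads in WT and 16, 19 and 14 reads in CKO replicates 1, 2 and 3. No other alpha gene had more than 3 reads in a library. *Pcdhac1*, the other C-type gene of the cluster, had 3 reads in WT replicate 3 and none elsewhere. The FPKM of *Pcdhac2* was 0.102 ± 0.015 in WT and 0.139 ± 0.036 in CKO (SD, n = 3), the groups overlapped, and the log2 fold change was 0.23 (SE 0.26, limma adjusted *p* = 0.859 among genes with a mean of at least 0.1 FPKM). At this depth a difference in the alpha cluster was not detectable for any gene other than *Pcdhac2*, and for *Pcdhac2* the 95% confidence interval reached from -0.36 to 0.83 on the log2 scale.

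The beta genes varied in level along the cluster. The level per own exon over the 6 libraries was 0.234 to 0.437 from *Pcdhb2* to *Pcdhb8*, with *Pcdhb2* lowest and *Pcdhb5* highest. It was 0.069 to 0.121 from *Pcdhb9* to *Pcdhb14*, and there *Pcdhb13* was lowest. From *Pcdhb17* to *Pcdhb22* it was 0.363 to 0.797, and the 4 strongest beta genes were all in this stretch, which lies nearest the gamma cluster. *Pcdhb22* led them with 0.710 ± 0.307 in WT and 0.883 ± 0.275 in CKO (SD, n = 3). These spreads overlap those of its neighbours in the order of levels, *Pcdhb17* with 0.50 ± 0.23 and *Pcdhb20* with 0.544 ± 0.080 in WT, and the order among the strongest beta genes is not resolved.

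The gamma cluster held most of the reads of the family, and 1 gene held about as many as the rest of it. *Pcdhgc3*, a C-type gene, had 1755, 1551 and 1609 reads in WT and 2039, 1261 and 1585 reads in CKO replicates 1, 2 and 3. This was 48.1% to 53.8% of all gamma reads of a library and 37.0% to 49.3% of the reads of all 57 members. Its level per own exon was 23.3 ± 4.98 in WT and 24.2 ± 7.94 in CKO (SD, n = 3). The next member was *Pcdhgb6* with 4.30 ± 0.516 in WT and 3.28 ± 0.511 in CKO, and its highest library (4.89) lay below the lowest library of *Pcdhgc3* (19.2).

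Behind *Pcdhgc3*, the order in WT was *Pcdhgb6* (3.93 to 4.89), *Pcdhgb7* (2.78 to 3.06) and *Pcdhga11* (2.03 to 2.46), whose WT libraries did not overlap. In CKO the ranges were 2.77 to 3.79, 2.05 to 4.26 and 2.46 to 3.98 and overlapped, so there these 3 genes had no order beyond their spread. The variable genes from *Pcdhgb6* to *Pcdhga12*, which lie next to the C-types, had mean levels of 1.35 to 3.79, the lowest being *Pcdhga10*. Those upstream of them, from *Pcdhga1* to *Pcdhga9*, had 0.422 to 1.51, the highest being *Pcdhga3*. The other C-type genes were far weaker than *Pcdhgc3*. *Pcdhgc4* had 1.603 ± 0.309 in WT and 1.30 ± 0.513 in CKO, and *Pcdhgc5* had 0.515 ± 0.268 and 0.496 ± 0.213.

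No clustered protocadherin changed past the threshold in CKO limb buds compared to WT. Of the 20 members tested, 0 had a limma adjusted *p* value under 0.05, where 8 of the 12305 genes tested (0.065%) had one. Adjusted *p* values of the members ran from 0.620 to 0.9996. At an unadjusted threshold of 0.05, 0 members passed, against 8.31% of the genes tested. Among the 39 members with a mean of at least 0.1 FPKM, 0 were called as well (all genes 0.0689%), and the lowest adjusted *p* value was 0.582, that of *Pcdhb8*. With the replicate number as a block 0 of 20 members were called (all genes 2.81%), and 2 passed 0.05 before adjustment, *Pcdhgb6* and *Pcdhga11*, where 18.4% of all genes did.

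The precision behind these tests was limited. The 95% confidence intervals of the 20 members reached 0.40 to 0.84 on the log2 scale to either side of the estimate, and at the extremes they went down to -0.96 (*Pcdhgc4*) and up to 1.25 (*Pcdhb17*). Changes within such an interval could not be told from 0 here.

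**Figure D2:**
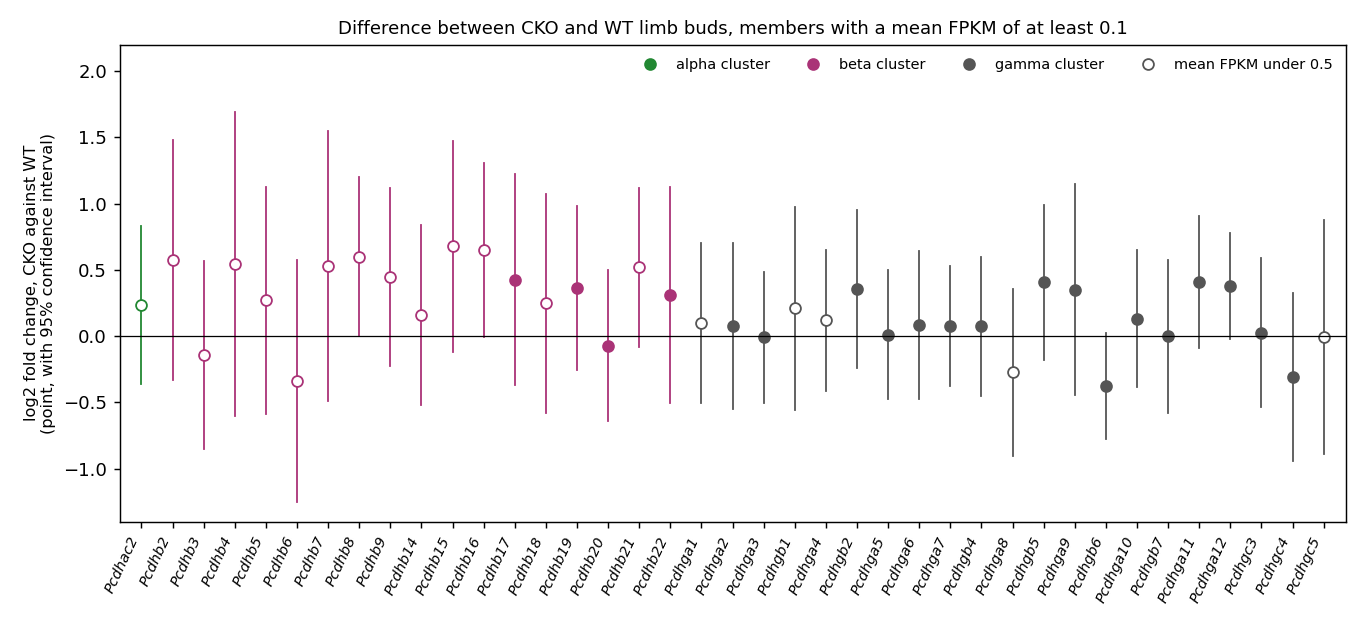
Log2 fold change of CKO against WT on the log2(FPKM + 0.1) scale (y axis) for the 39 members with a mean of at least 0.1 FPKM, in their order along the chromosome (x axis), with 95% confidence intervals from limma as bars. Filled points are the 20 members with a mean of at least 0.5 FPKM, and every interval includes 0.

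The estimates leaned upwards, but the lean of the gamma genes rested on CKO replicate 1. Of the 20 members tested, 16 had a higher mean log2 value in CKO and 4 a lower one, with a median log2 fold change of 0.08, where all genes tested had 0.0048. By cluster, 3 of 4 beta and 13 of 16 gamma members were higher, with medians of 0.34 and 0.08. The minimum applied to the mean of the 6 libraries. *Pcdhb17*, *Pcdhb19* and *Pcdhga6*, all among the higher, had WT means under 0.5 FPKM and reached the minimum only through CKO. Without CKO replicate 1 the gamma count turned to 5 higher and 11 lower (median -0.07), and without replicate 1 of both groups to 6 higher and 10 lower (median -0.05). The 4 beta members were then all higher, with a median of 0.23 without replicate 1 of both groups. Without WT replicate 1 the beta count was 2 higher and 2 lower, with a median of 0.02. Of the 20 members, 0 were called without replicate 1 of both groups, where 15.0% of all genes were, and the lowest adjusted *p* value was 0.119 (*Pcdhgb6*).

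With the minimum at 0.1 FPKM, 14 of 17 beta members were higher in CKO and 3 lower, with a median log2 fold change of 0.43. All genes tested at this minimum had a median of 0.00041. Among the higher members, *Pcdhb9* and *Pcdhb14* had WT means under 0.1 FPKM and reached the minimum only through CKO. The 3 lower ones were *Pcdhb3*, *Pcdhb6* and *Pcdhb20*. Taking the CKO minus WT difference within each replicate number, 15, 12 and 12 of the 17 were higher in CKO for numbers 1, 2 and 3, with medians of 0.47, 0.15 and 0.08. For the 21 gamma members these counts were 17, 13 and 9, with medians of 0.46, 0.13 and -0.14. The difference between the groups was thus largest between the replicate 1 libraries in both clusters.

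The 3 CKO values lay above all 3 WT values in 4 of the 39 members, where 5.73% of all genes did so, and these were *Pcdhb8*, *Pcdhb9*, *Pcdhb16* and *Pcdhga12*. They lay below in 1 member, *Pcdhgb6*, where 8.93% of all genes did so. *Pcdhb8* had 0.287, 0.252 and 0.224 FPKM in WT and 0.301, 0.585 and 0.457 FPKM in CKO. Its groups were barely apart, with CKO replicate 1 next to WT replicate 1, and its log2 fold change was 0.60 (SE 0.26, limma adjusted *p* = 0.582).

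*Pcdhb16* had 0.127, 0.224 and 0.254 FPKM in WT and 0.264, 0.480 and 0.377 FPKM in CKO, from 12 to 48 reads per library. The CKO library was higher within every replicate number, and the log2 fold change was 0.65 (SE 0.28, limma adjusted *p* = 0.588, and 0.228 with the block). *Pcdhb9* rested on 2 to 10 reads per library and reached the minimum of 0.1 FPKM only through CKO. Its values were 0.036, 0.109 and 0.120 FPKM in WT and 0.163, 0.171 and 0.124 FPKM in CKO, with a log2 fold change of 0.45 (SE 0.29, limma adjusted *p* = 0.737). Each of these beta genes encodes a cadherin-like surface protein without the constant cytoplasmic domain of the alpha and gamma proteins.

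The 4 beta members that reached 0.5 FPKM had groups that overlapped. *Pcdhb17* had 0.238, 0.583 and 0.679 FPKM in WT and 0.498, 0.729 and 0.783 FPKM in CKO, with a log2 fold change of 0.43 (SE 0.36, limma adjusted *p* = 0.828). *Pcdhb22* had 0.353, 0.917 and 0.715 FPKM in WT and 0.527, 0.956 and 0.983 FPKM in CKO (0.31, SE 0.36, limma adjusted *p* = 0.869). In both genes WT replicate 1 was the lowest library and CKO replicate 1 the next. *Pcdhb19* had 0.365, 0.527 and 0.520 FPKM in WT and 0.480, 0.907 and 0.558 FPKM in CKO, where CKO replicate 2 stood out (log2 fold change 0.36, SE 0.28, limma adjusted *p* = 0.810). *Pcdhb20*, lying between *Pcdhb19* and *Pcdhb22*, had a log2 fold change of -0.07 (SE 0.26, limma adjusted *p* = 0.964), from 0.544 ± 0.080 FPKM in WT and 0.523 ± 0.149 FPKM in CKO.

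*Pcdhgb6*, the strongest variable gene of the family, was the only gamma gene whose CKO libraries all lay below the WT libraries. It had 2.68, 2.23 and 2.15 FPKM in WT and 2.08, 1.52 and 1.79 FPKM in CKO replicates 1, 2 and 3, from 136 to 250 reads per library. The mean went from 2.35 ± 0.283 to 1.79 ± 0.280 FPKM (SD, n = 3), which was -0.38 on the log2 scale (SE 0.17, limma adjusted *p* = 0.620). The lowest WT and the highest CKO library were close together, and the limma adjusted *p* was 0.199 with the block.

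Downstream of *Pcdhgb6*, though not next to it, *Pcdhga11* and *Pcdhga12* had the opposite sign. *Pcdhga12* had 0.899, 0.853 and 0.908 FPKM in WT and 1.39, 1.07 and 1.11 FPKM in CKO, with no overlap and a log2 fold change of 0.38 (SE 0.18, limma adjusted *p* = 0.635). *Pcdhga11* had 1.36, 1.12 and 1.14 FPKM in WT and 2.21, 1.36 and 1.44 FPKM in CKO, and its lowest CKO library fell just inside the WT range (log2 fold change 0.41, SE 0.22, limma adjusted *p* = 0.689). *Pcdhgb7*, which lies between *Pcdhgb6* and *Pcdhga11*, had 1.61 ± 0.079 FPKM in WT and 1.68 ± 0.615 FPKM in CKO, where replicate 1 was high at 2.34 FPKM and replicate 2 low at 1.13 FPKM. *Pcdhgb5*, further upstream, had 0.618, 0.465 and 0.429 FPKM in WT and 0.960, 0.644 and 0.536 FPKM in CKO (log2 fold change 0.41, SE 0.27, limma adjusted *p* = 0.751). The estimates of these variable genes, picked partly for large rises or falls, thus differed in sign, and none of them passed the test.

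Among the C-type genes of the gamma cluster, *Pcdhgc3* had 17.7, 11.8 and 13.4 FPKM in WT and 20.5, 11.98 and 12.1 FPKM in CKO. Its log2 fold change was 0.03 with a 95% confidence interval from -0.54 to 0.59 (SE 0.24, limma adjusted *p* = 0.985), and the replicate 1 libraries were the highest in both groups. *Pcdhgc4* had 1.19, 0.806 and 0.991 FPKM in WT and 1.17, 0.672 and 0.584 FPKM in CKO (log2 fold change -0.31, SE 0.28, limma adjusted *p* = 0.837). Both showed the replicate 1 libraries high. *Pcdhgc5*, with 26 to 64 reads per library, had 0.466, 0.142 and 0.325 FPKM in WT and 0.435, 0.178 and 0.286 FPKM in CKO. *Pcdhga3*, the fourth tested member with a lower mean on the log2 scale, had a log2 fold change of -0.0092 (SE 0.22, limma adjusted *p* = 0.995).

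**Figure D3:**
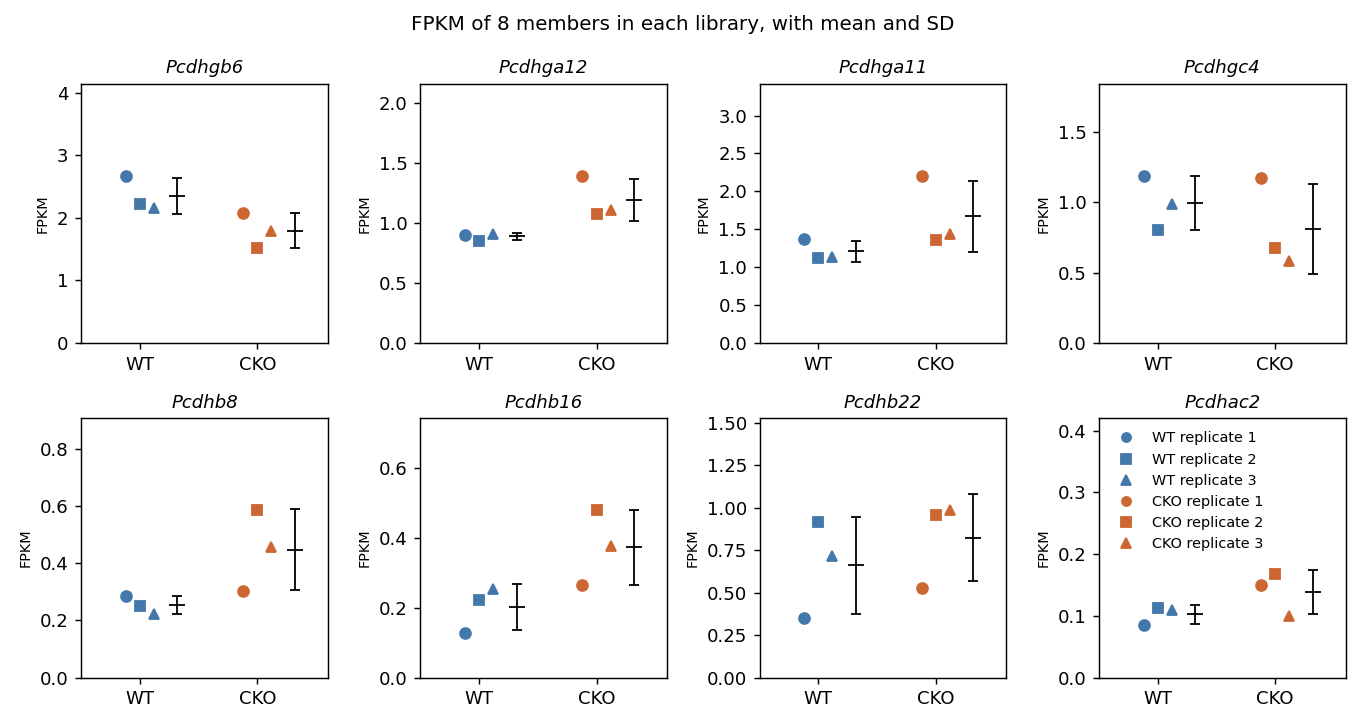
FPKM (y axis, from 0) of 8 members in WT and CKO limb buds, with 1 point per library and the mean ± SD (n = 3) as a black bar beside the points. The CKO points lie below WT in *Pcdhgb6* and above WT in *Pcdhga12*, *Pcdhb8* and *Pcdhb16*, and overlap in *Pcdhga11*, *Pcdhgc4*, *Pcdhb22* and *Pcdhac2*.

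The beta and the gamma cluster differed in how the replicate 1 libraries behaved, a pattern noticed in the values and given without a test. The replicate 1 library was the lowest of its group in both groups for 12 of the 17 beta members with a mean of at least 0.1 FPKM and for 0 of the 21 gamma members, where 30.1% of all genes showed this. It was the highest in both groups for 10 of the 21 gamma members and for 0 of the 17 beta members, where 27.2% of all genes showed this. The members are counted in the same 6 libraries and are not independent.

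Summed over the cluster, the beta level per own exon was 3.49, 6.81 and 7.01 in WT and 5.77, 8.97 and 7.64 in CKO replicates 1, 2 and 3. The groups overlapped, the CKO library was higher within each replicate number, and without replicate 1 both CKO sums lay above both WT sums. The sum of the 18 gamma A and B genes was 26.2, 23.1 and 24.0 in WT and 33.6, 22.7 and 22.8 in CKO. Here CKO replicate 1 was high and the other 2 CKO libraries lay slightly below WT. The ratio of the beta sum to the gamma A and B sum was 0.133, 0.295 and 0.292 in WT and 0.172, 0.394 and 0.335 in CKO, so that the replicate 1 library had the lowest ratio in both groups, and CKO was higher within each number. All members together had 3562, 3987 and 3964 reads in WT and 4444, 3412 and 4107 reads in CKO, before any scaling to depth. Relative to the reads on the listed genes of each library, the order was different. CKO replicate 1 was then the highest library and WT replicate 1 the highest in WT, while CKO replicates 2 and 3 lay below all WT libraries.

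**Figure D4:**
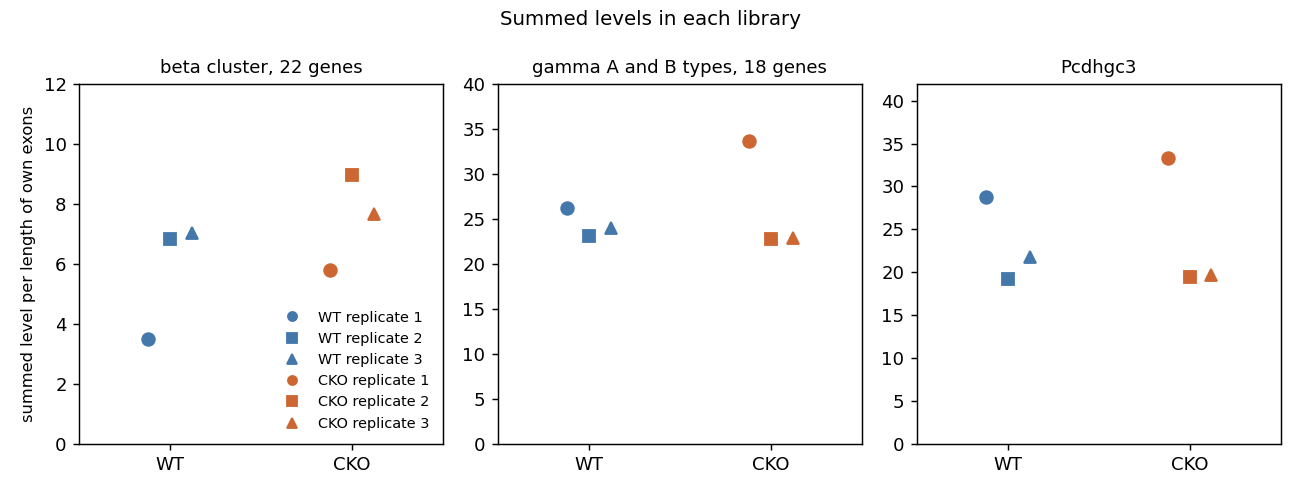
Summed level per own exon (y axis, from 0) in each library for the 22 beta genes, the 18 gamma A and B genes and *Pcdhgc3*, with 1 point per library. The replicate 1 libraries (circles) are the lowest of their group for the beta sum and the highest for the gamma sum and *Pcdhgc3*.

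**Figure D5:**
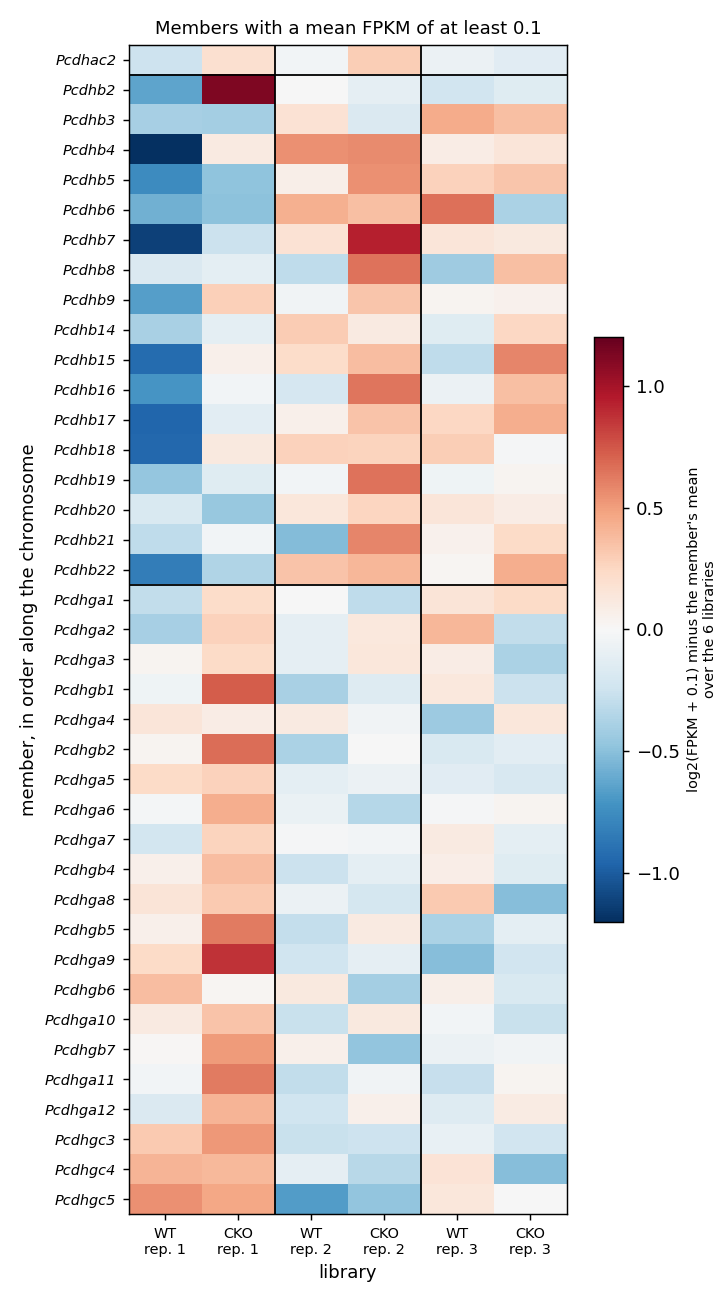
Deviation of log2(FPKM + 0.1) from the member's mean over the 6 libraries (colour, red above and blue below the mean, scale ending at 1.2) for the 39 members with a mean of at least 0.1 FPKM. Rows follow the order along the chromosome, with black lines between clusters, and columns are the libraries, paired by replicate number. Most beta genes are blue in WT replicate 1 and most gamma genes red in CKO replicate 1.

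The summed markers of several other cell types also differed in the replicate 1 libraries, not all in the same direction. The globin genes of red blood cells summed to 13.7% of all FPKM in WT replicate 1 and 11.7% in CKO replicate 1, against 19.5% to 32.4% in the other libraries. The 8 ectoderm markers summed to 46.9 and 51.7 FPKM in the replicate 1 libraries and to 66.9 to 80.2 FPKM in the others. The gap was largest for *Krt5* (6.54 and 12.1 FPKM against 18.5 to 22.8) and *Krt14* (2.08 and 4.05 FPKM against 11.8 to 13.9). *Krt8*, *Krt18* and *Epcam* were also lowest in the replicate 1 libraries. *Cdh1* and *Trp63* overlapped the other libraries, and *Fgf8* was highest in replicate 1 of both groups. The 12 markers of Schwann cell precursors and axons, all above 0 in some library, summed to 14.2 and 14.9 FPKM in the replicate 1 libraries and to 15.9 to 18.7 FPKM in the others. Single genes of that list went in opposite directions, as *Sox10* was lowest in WT replicate 1 (0.491 FPKM against 1.32 to 2.02 elsewhere), whereas *Dcx* was highest in replicate 1 of both groups (5.45 and 4.32 FPKM against 2.76 to 3.93). The 6 muscle precursor markers summed to 13.9 FPKM in WT replicate 1 and to 25.1 to 32.2 FPKM in the other libraries, CKO replicate 1 included. *Myog*, *Myod1*, *Myf5* and *Pax7* were lowest in WT replicate 1 and *Lbx1* lay within the range of the others. *Pax3* was highest in WT replicate 1 (3.30 against 1.13 to 3.14 FPKM). The 6 endothelial markers summed to 30.3 FPKM in WT replicate 1, the highest, and to 15.0 FPKM in CKO replicate 1, the lowest, against 21.0 to 24.1 FPKM in the others. Their part in the protocadherin values was not tested.

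Between the genotypes, the summed neural markers overlapped (14.2 to 18.7 FPKM in WT, 14.9 to 16.4 FPKM in CKO), and 0 of 7 tested passed the adjusted threshold, with 3 higher and 4 lower. None of the tested markers of limb mesenchyme, muscle precursors, endothelium, ectoderm, red blood cells or macrophages passed it either, although with the replicate block *Tbx5*, a forelimb gene of the mesenchyme list, did (log2 fold change -0.93, limma adjusted *p* = 0.0073 with the block). The mean log2 value was lower in CKO for all 6 endothelial markers, by only 0.02 for *Tek*, with a median log2 fold change of -0.31, and CKO replicate 1 held the lowest endothelial sum. It was higher in CKO for the 5 muscle precursor markers tested (median 0.47), and WT replicate 1 held the lowest muscle precursor sum.

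The genes that act on these promoters did not pass the threshold. Of 16 listed regulators 15 were analysed, all were tested and 0 were called, with 12 higher and 3 lower in CKO and a median log2 fold change of 0.11. *Ctcf* had 43.7, 36.8 and 37.9 FPKM in WT and 48.9, 40.8 and 43.5 FPKM in CKO (log2 fold change 0.17, SE 0.13, limma adjusted *p* = 0.804). It was higher in CKO within each replicate number, while the groups overlapped. The cohesin gene *Stag2* had 25.0, 22.9 and 25.4 FPKM in WT and 26.0, 39.1 and 30.3 FPKM in CKO (0.36, SE 0.16, limma adjusted *p* = 0.622). *Wapl*, which releases cohesin from chromatin, also lay higher in all 3 CKO libraries (0.25, SE 0.12, limma adjusted *p* = 0.659). The genes that keep the clusters methylated or silent had log2 fold changes near 0, with -0.12 for *Dnmt3b*, -0.04 for *Smchd1* and 0.01 for *Setdb1*.

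Of the 14 genes for processing and intracellular partners, such as *Adam10*, the protease that sheds gamma protocadherins, and *Fyn* and *Ptk2*, kinases at their cytoplasmic side, 13 were tested and 0 were called, with 6 higher and 7 lower. The non-clustered protocadherins, which are encoded outside the clusters, gave the same count of calls. *Pcdh1* and *Pcdh12* among them also lie on chromosome 18, from 38185914 and 38267089, downstream of the gamma cluster. Of 12 listed 9 were tested and 0 called, with 3 higher and 6 lower and a median log2 fold change of -0.05. *Pcdh18* was the strongest of them in FPKM, with 42.4, 38.1 and 39.5 FPKM in WT and 42.2, 44.6 and 37.5 FPKM in CKO.

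Among 8 genes inside or beside the clusters 7 were tested and 0 were called, and *Taf7* stood apart from the others. *Taf7*, which encodes a subunit of the general transcription factor TFIID, lies between the beta and gamma clusters. It had 9.90, 13.4 and 11.9 FPKM in WT and 14.0, 24.5 and 20.6 FPKM in CKO, and all CKO libraries lay above WT. Its log2 fold change was 0.72 (SE 0.22, limma adjusted *p* = 0.426). The limma adjusted *p* was 0.0048 with the replicate block, a fit in which 2.81% of all genes were called. It was 2.9e-05 without replicate 1 of both groups, a fit added after seeing the data in which 15.0% of all genes were called. The log2 fold change of *Taf7* in that fit was 0.82. *Taf7* was called in 4 of 19 alternatives and not in the other 15. *Slc25a2*, its neighbour and a mitochondrial ornithine carrier, had 1 to 8 reads per library and was not tested. The other genes of the list had log2 fold changes from -0.21 (*Fchsd1*) to 0.12 (*Zmat2*). The gene models *Gm42416*, *Gm37013* and *Gm37388*, which join exons of the alpha and gamma clusters and fall outside the rule on symbols, had 0 reads in all libraries. Few if any reads on shared exons were counted, so this 0 does not show whether they were expressed.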

How the data were processed

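Of the study's assays only RNA-seq was analysed. Libraries were stranded, and the authors deposited 1 FPKM value per protein-coding gene and library. The submitters' processing notes name mm10, HISAT2 2.1.0, featureCounts 1.6.3 and cutadapt 2.5, without saying what each did. FPKM times the exon length in GENCODE vM21 gave whole reads (within 0.1) in all libraries for 92.6% of genes, and reads and depths here come from it. *Pcdhga10* had 67 to 82 reads although an antisense gene covers all of its own exon, so reads were counted by strand.

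log2(FPKM + 0.1) was compared between CKO and WT with limma 3.58.1 (R 4.3.3; lmFit, and eBayes with a trend) for the 12305 genes with a mean of at least 0.5 FPKM. A fold change on this scale understates changes of low genes. *p* values were two-sided and adjusted by Benjamini-Hochberg over all genes tested, and the 57 members were read from that fit. Tables and plots were made in Python 3.11.15 with pandas 2.3.3, numpy 2.4.6 and matplotlib 3.10.9. Deviations from the group mean of libraries with the same number correlated across genes at 0.64, 0.44 and 0.27 (different numbers from -0.60 to 0.49). WT replicate 2 correlated more with CKO replicate 3 (0.49), and WT replicate 3 more with CKO replicate 2 (0.31), than with their own numbers. The correlations thus set only replicate 1 apart. A shared number was treated as a pair for all 3, and the labels do not say what it stands for. The model was tested on simulated data.

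Members described are those whose groups did not overlap, the 3 largest rises and falls and the 3 highest means of each cluster, the C-types, and those next to the minimum. Other members were named after their values were seen. The members and lists were chosen with earlier results of these data known. Alternatives were other pseudocounts, minimums and scalings, eBayes without a trend, the replicate block, voom on recovered reads and each library left out. The fit without replicate 1 of both groups, the block with a minimum of 0.1 FPKM and voom with the block were added after seeing the data.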

Additional observations from a re-analysis of the deposited data

How the results depend on the processing

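Under 19 alternatives 0 members were called in each, and the lowest adjusted *p* value of any member was 0.119. The count of all genes called, 8, became 13 with quantile normalization, 346 with the replicate block, 263 with the block and a minimum of 0.1 FPKM, 651 by voom with the block, 1851 without replicate 1 of both groups, and 1 to 23 with 1 library left out. The replicate block changed the calls of *Taf7* and *Tbx5* and of no member. *Hnrnpk* passed without replicate 1 of both groups (adjusted *p* = 0.038) and by voom with the block (0.022). The median log2 fold change ranged from 0.02 to 0.55 for the beta and from -0.07 to 0.17 for the gamma members tested, and 7 of the 13 tested members named by the rule kept their direction throughout. Those that turned had estimates near 0, except *Pcdhb22*. *Pcdhb20* (-0.07) was at 0.030 without replicate 1 of both groups and from -0.22 to 0.14 with 1 library left out, *Pcdhb22* (0.31) from -0.024 to 0.57, *Pcdhga3* (-0.0092) from -0.12 to 0.18, *Pcdhga6* (0.08) from -0.11 to 0.27, *Pcdhgb7* (0.00034) from -0.26 to 0.24 and *Pcdhgc3* (0.03) from -0.23 to 0.19. *Pcdhga3* was also at 0.00087 with a pseudocount of 1, 0.0056 with median-ratio scaling and 0.039 with quantile normalization, and *Pcdhgb7* at -0.011 by voom. Without replicate 1 of both groups *Pcdhga6* was at -0.10, *Pcdhgb7* at -0.25 and *Pcdhgc3* at -0.063. The cause was not tested. Depth limits the alpha cluster and the lower beta genes, and 3 libraries per group limit all of them.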
